A study of Mus musculus with 20 samples.

Results

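Trimethylation of lysine 4 on histone H3 (H3K4me3) marks the starts of active genes, and most of its peaks lie at the ends of protein-coding genes. The regions described here are the H3K4me3 peaks of wild-type hematopoietic stem cells (HSC) that do not. They are the peaks of the wild-type (WT) list that overlapped an H3K4me3 peak of the Mtor knockout (KO) list and lay more than 5 kb from both annotated ends of every protein-coding gene on chromosomes 1 to 19 and X. This rule gave 3393 members, which is 22.5% of the 15089 WT peaks and 24.1% of the 14079 WT peaks shared with KO. The other 10686 shared peaks, within 5 kb of a coding end, served for comparison. Because the members were chosen by H3K4me3 in both genotypes, their H3K4me3 widths and scores are a description and were not tested.

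All cells were HSC sorted from adult mice that had received poly(I:C), which induces the interferon-responsive Mx1-Cre transgene and with it recombination of floxed alleles. The WT group was Mx1-Cre-/-;mTORflox/flox, the KO group was Mx1-Cre+/-;mTORflox/flox, and the KO MycHet group was Mx1-Cre+/-;mTORflox/flox;c-Myc+/flox, so every group carried the floxed Mtor alleles and had poly(I:C). Chromatin immunoprecipitation of H3K4me3, H3K27ac (a mark of active promoters and enhancers) and the transcription factor MYC had 1 WT and 1 KO library each. Open chromatin was profiled by ATAC-seq, which tags accessible DNA with a transposase, in 2 WT, 2 KO and 2 KO MycHet libraries of 50000 cells each, and the control mice carry no Cre, so an effect of Cre itself and of the Mtor deletion cannot be told apart.

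The lists were peak calls of single libraries with no read counts, so the depth of every library is unknown and confidence intervals cover counting error only. The ATAC lists differed widely in length: they held 17303 peaks in WT library 1, 66531 in WT library 2, 19174 in KO library 1, 72149 in KO library 2, 47214 in KO MycHet library 1 and 53722 in its library 2. The lower end of Mtor (chr4:148448582) had a peak in 5 of 5 WT lists, in 0 of 5 KO lists and in 0 of 2 KO MycHet lists. Of 14 HSC genes, 10 had H3K4me3 at an end in WT, among them Procr, Slamf1 and Hlf, while Ly6a, Meis1, Gata2 and Tal1 had none there. Over all 21631 coding genes, 11438 (52.9%) had H3K4me3 at an end in WT. Ends of other cells' marker genes were also marked in WT: 5 of 12 erythroid, 3 of 12 myeloid, 2 of 12 B-cell, 2 of 12 T and NK cell, 6 of 12 megakaryocyte and 7 of 12 stromal or endothelial genes. Their part in the results was not tested.

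H3K4me3 is written by the SET1 and MLL methyltransferase complexes and is densest over CpG-rich promoters. Away from coding gene ends it is known at promoters of long non-coding RNAs (lncRNAs) and microRNA host genes, at internal promoters of coding genes, near tRNA genes and, at lower levels, at enhancers. MYC, a factor that drives growth and ribosome production, binds DNA with its partner MAX and prefers the E-box CACGTG.

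Sequences at member starts show how varied the promoters under these peaks were. RefSeq transcription starts of coding genes or lncRNAs lay under 755 members (22.3%; exact Clopper-Pearson 95% CI 20.9 to 23.7). The windows below run from 250 bases before a start to 50 bases after it for lncRNAs, and stop at the start for Runx1, a coding gene. All are RefSeq sequences of GRCm38.p6 (mm10), 5′ to 3′ on the gene's own strand, in lower case with each CACGTG and each GGGCGG (a GC box, either strand, with overlapping copies merged) in capitals. Snhg5 was chosen as one of the highest-scoring listed lncRNAs, Jpx, Dleu2 and Firre as lncRNAs with a CACGTG, Mir99ahg as one with few CG pairs, and Runx1 as an internal start of a blood regulator.
Snhg5 (chr9:88522848-88523147, minus strand): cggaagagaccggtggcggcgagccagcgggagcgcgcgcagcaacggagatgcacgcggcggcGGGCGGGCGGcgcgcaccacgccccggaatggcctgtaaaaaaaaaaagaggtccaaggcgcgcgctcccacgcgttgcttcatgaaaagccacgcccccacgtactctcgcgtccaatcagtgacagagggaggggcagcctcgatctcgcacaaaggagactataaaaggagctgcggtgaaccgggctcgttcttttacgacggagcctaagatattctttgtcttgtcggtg
Jpx (chrX:103493308-103493607, plus strand): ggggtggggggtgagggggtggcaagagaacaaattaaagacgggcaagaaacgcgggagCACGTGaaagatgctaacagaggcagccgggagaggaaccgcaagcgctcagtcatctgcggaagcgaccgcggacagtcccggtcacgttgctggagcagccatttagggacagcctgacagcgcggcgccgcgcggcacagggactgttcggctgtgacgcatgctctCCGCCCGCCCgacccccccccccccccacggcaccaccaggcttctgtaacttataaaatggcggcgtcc
Dleu2 (chr14:61682324-61682623, minus strand): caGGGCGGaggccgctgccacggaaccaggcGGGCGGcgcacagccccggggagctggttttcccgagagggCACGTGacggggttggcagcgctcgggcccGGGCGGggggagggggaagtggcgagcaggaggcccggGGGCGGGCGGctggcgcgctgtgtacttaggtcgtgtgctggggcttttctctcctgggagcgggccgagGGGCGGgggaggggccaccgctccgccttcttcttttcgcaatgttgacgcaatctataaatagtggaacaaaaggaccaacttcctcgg
Firre (chrX:50635272-50635571, minus strand): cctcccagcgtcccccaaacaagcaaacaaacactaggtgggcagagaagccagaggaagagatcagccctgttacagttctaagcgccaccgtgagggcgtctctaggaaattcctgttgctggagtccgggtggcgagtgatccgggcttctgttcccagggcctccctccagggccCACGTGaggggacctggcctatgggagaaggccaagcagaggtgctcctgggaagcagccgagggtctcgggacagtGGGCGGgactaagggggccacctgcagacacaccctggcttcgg
Mir99ahg (chr16:77329078-77329377, plus strand): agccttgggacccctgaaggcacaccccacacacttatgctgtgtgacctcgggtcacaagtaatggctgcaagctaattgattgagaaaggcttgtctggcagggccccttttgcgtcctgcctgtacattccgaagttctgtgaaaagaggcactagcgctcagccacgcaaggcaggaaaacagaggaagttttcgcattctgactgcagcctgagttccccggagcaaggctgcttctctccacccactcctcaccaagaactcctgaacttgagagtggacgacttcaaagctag
Runx1 (chr16:92697330-92697579, minus strand): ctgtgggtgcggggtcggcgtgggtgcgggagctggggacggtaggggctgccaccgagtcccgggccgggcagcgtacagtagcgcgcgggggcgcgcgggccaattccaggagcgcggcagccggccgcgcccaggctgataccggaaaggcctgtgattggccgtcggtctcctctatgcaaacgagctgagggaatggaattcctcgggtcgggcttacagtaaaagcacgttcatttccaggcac

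The Snhg5 window held 36 CG pairs, the Dleu2 window 29, the Jpx window 27, the 250 Runx1 bases printed also 27, the Firre window 12 and the Mir99ahg window 8. Over the 961 windows whose start lay under a member, the median was 15 CG pairs with 58.3% G and C. The median was 22 CG pairs over windows under the other shared H3K4me3 peaks and 4 over windows under no shared peak. Member windows were thus between those at the other shared peaks and those under no shared peak in CG content. Their median observed-to-expected CG ratio was 0.621, against 0.799 and 0.231. The sets differ in make-up, with lncRNA starts in 362 of the 961 member windows and 1089 of the 11032 at the other shared peaks. For coding genes alone the medians were 17 and 22 CG pairs. GGGCGG on either strand was present in 51.8% of member windows, 68.1% of windows at the other shared peaks and 35.9% of all 32619 windows. TATAAA on either strand, the TATA box core, was present in 6.45% of member windows and 13.7% of all windows. At the other shared peaks the TATAAA share was 5.86%, and under no shared peak 18.2%. CACGTG, which is its own reverse complement, was present in 7.91% of member windows, 10.6% of windows at the other shared peaks and 7.2% of all windows. For coding genes the share was 6.34% of member windows, 10.7% of windows at the other shared peaks and 7.91% of all coding windows. For lncRNAs it was 10.5%, 10.3% and 5.9%, so lncRNA windows at members and at the other shared peaks had close shares. Among member windows CACGTG was present in 8.46% of those with a MYC peak in KO and in 7.7% of those without one, and in WT the order was the other way, 5.79% with a MYC peak and 8.21% without. These matches are a description, and the motifs were searched only in the 300-base windows.

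MicroRNA (miRNA) genes lay at 27 members. Of 38 such genes, 36 had mature sequences in the RefSeq table. The seed, bases 2 to 8, pairs with target mRNAs and is shown in capitals. The sequences below are from a pair of members that carry related clusters, and from Mir125b-2, a miRNA gene known in HSC.
miR-17-5p: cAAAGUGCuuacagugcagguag
miR-20a-5p: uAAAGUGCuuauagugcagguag
miR-106a-5p: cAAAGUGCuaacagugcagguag
miR-20b-5p: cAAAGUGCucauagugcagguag
miR-18a-5p: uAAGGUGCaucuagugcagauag
miR-18b-5p: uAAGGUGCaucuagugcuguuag
miR-19a-3p: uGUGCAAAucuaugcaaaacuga
miR-92a-3p: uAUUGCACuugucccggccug
miR-125b-5p: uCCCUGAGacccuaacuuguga

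The first 4 sequences share the seed AAAGUGC, and the pair of miR-18 sequences shares AAGGUGC. miR-17-5p, 18a, 19a, 20a and 92a come from Mir17hg, the host of the miR-17 to miR-92 cluster, at the member chr14:115039403-115043987. miR-106a, 18b and 20b come from the related cluster beside the member chrX:52743190-52746696, whose nearest coding gene is Ccdc160. This locus was singled out after its values were seen. The WT H3K4me3 scores of both members were close, 250 at Mir17hg and 244 near Ccdc160. Their other marks were not alike. The Mir17hg member was open in 6 of 6 ATAC libraries, with scores from 248 to 1187, had an H3K27ac peak of 130 in KO and none in WT, and a MYC peak of 74.0 in KO and none in WT. That MYC score was under 82.9, the lowest among the 8774 highest peaks of the longer KO list, as many as the WT list held. The member near Ccdc160 was open in 4 of 6 libraries, with scores from 226 to 340, and had no H3K27ac or MYC peak in either genotype. The Mir125b-2 member (chr16:77643288-77645321, WT score 259) was open in 6 of 6 libraries and also had no H3K27ac or MYC peak.

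Members were narrower and scored lower than the shared peaks at coding ends. Their median width was 1357 bp in WT (quartiles 938 and 2034, range 319 to 7947) and 1765 bp in KO, against 2500 bp and 3116 bp at coding ends. The median WT score, a value from the authors' peak caller whose scale is not stated, was 150.7 for members and 367.2 for the others, and in KO it was 164.2 and 384.1. Scores of 400 or more were reached by 421 members (12.4%) and 4646 of the others (43.5%), and scores under 100 were held by 1047 members (30.9%) and 834 of the others (7.8%).

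**Figure D1:**
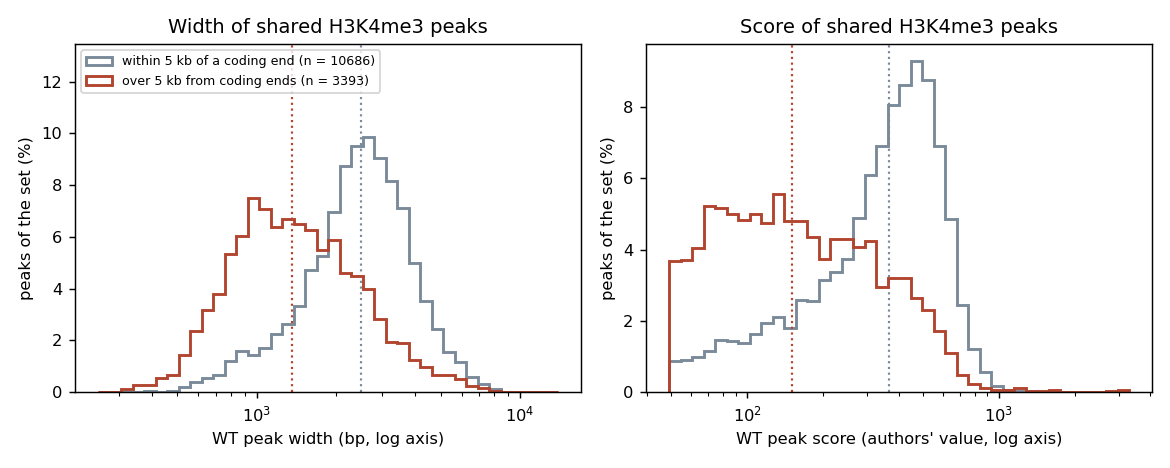
Distribution of WT width (left, bp, log axis) and WT score (right, the authors' value, log axis) over the 3393 shared H3K4me3 peaks over 5 kb from coding ends and the 10686 within 5 kb, as a percentage of each set. Dotted lines are the medians, 1357 and 2500 bp for width and 150.7 and 367.2 for score.

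Very broad peaks were few among members. A WT width of 5 kb or more was found for 61 members (1.8%) and 444 of the others (4.15%). The widest, at 7947 bp, covered an internal start of Pde4b, a cyclic AMP phosphodiesterase, and the lncRNA Gm52667 (chr4:102568057-102576003). Other members among the 8 widest covered internal starts of Gcnt2 (7695 and 6664 bp), Frmd4a (7164 bp) and Tpm3 (6970 bp), the lncRNA Lncpint (6967 bp), a region inside Vgll4 (7101 bp) and the joining segments of the immunoglobulin heavy chain locus (7228 bp). Of these, the immunoglobulin member had a low WT score of 73.9 and a narrower KO peak of 3131 bp.

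The KO peak was wider than the WT peak at 2931 members (86.4%) and at 9809 of the other shared peaks (91.8%). The median ratio of KO to WT width was 1.249 at members and 1.227 at the others, so the wider KO calls were found in both sets. Scores of the WT and KO lists were not put on a common scale. They are given side by side below and no change is read from them. Among the 8 highest in WT, the member at the lncRNA Gm36459 inside Dennd4a, a regulator of Rab GTPases, scored 1229 in WT and 405 in KO.

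The distance to the nearest coding end had a median of 24800 bp, and 2710 members (79.9%) were more than 10 kb and 505 (14.9%) more than 100 kb away. Just inside the limit were members at 5003 bp from Zfp119b, 5005 bp from Ostc and 5012 bp from Rab13, with WT scores of 261, 74.5 and 224. Just outside were peaks at 4999 bp from Dscam, 4998 bp from Sp2 and 4997 bp from Zkscan3, with scores of 50.8, 277 and 143. Members made up from 17.1% of shared peaks on chromosome 7 to 32.7% on chromosome 13.

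By position, members fell into 4 classes. An end of a non-coding gene lay within 1 kb of 624 members (18.4%; CI 17.1 to 19.7), and a pseudogene end but no non-coding end within 1 kb of a further 222 (6.54%; CI 5.73 to 7.43). Of the rest, 1432 (42.2%; CI 40.5 to 43.9) were inside a coding gene and 1115 (32.9%; CI 31.3 to 34.5) were intergenic. A division of the members inside coding genes by RefSeq starts, added after the data were seen, gave 432 over a start and 1000 without one. Those over an internal start had the highest median WT score, 311.8, and width, 2241 bp. Members at non-coding ends had 199.3 and 1685 bp, members inside coding genes without a start 139.8 and 1310 bp, intergenic members 122.4 and 1101 bp, and members at pseudogene ends 114.8 and 868 bp.

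Of the members at internal starts, 213 of 432 (49.3%) lay in a gene that also had a WT H3K4me3 peak at an outer end. For the other 219, no H3K4me3 peak lay within 1 kb of the host gene's annotated ends. For members inside a gene without a start, 647 of 1000 (64.7%) lay in a gene marked at an end. Over all 21631 coding genes, 11438 (52.9%) had a WT H3K4me3 peak within 1 kb of an end, so the share for internal starts was close to it. The highest internal starts were those of Syk, a kinase of immune receptor signalling (chr13:52596557-52598886, WT score 1091, KO score 586), Tank, an adaptor of the NF-κB and interferon pathways (862 and 628), and Mast3, a serine/threonine kinase (783 and 617). Each had a peak of H3K27ac in both genotypes, with scores in WT and KO of 94.2 and 376 at Syk, 66.0 and 514 at Tank, and 102 and 443 at Mast3. The 3 differed in openness. Syk had a peak in 0 of 2 short ATAC lists (WT library 1 and KO library 1), whereas Tank and Mast3 were open in 6 of 6 libraries.

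Among biotypes of non-coding genes, tRNA genes had a member nearby most often. Of 300 tRNA genes with both ends more than 5 kb from coding ends, 103 (34.3%) had a member within 1 kb, compared with 480 of 8852 lncRNAs (5.42%), 38 of 809 miRNAs (4.7%), 197 of 8443 pseudogenes (2.33%), 17 of 850 small nuclear RNA (snRNA) genes (2%) and 11 of 1064 small nucleolar RNA (snoRNA) genes (1.03%). tRNA genes often sit in clusters, so they are not independent. The 56 members at tRNA genes held up to 5 such genes each, and 27 held more than 1. Their WT scores ran from 51.0 to 702 with a median of 316.2. The highest, near Olfr1368 (chr13:21158852-21162349), was open in 6 of 6 ATAC libraries, had a MYC peak of 69.9 in KO and no H3K27ac peak. The second, with 4 tRNA genes near Hjv on chromosome 3 (score 679), had MYC peaks of 110 in WT and 99.3 in KO, again without H3K27ac. Over all 56, an H3K27ac peak was present at 8 (14.3%) in WT and 28 (50%) in KO, and a MYC peak at 17 (30.4%) in WT and 24 (42.9%) in KO. Over all members these shares were 22.6% and 53.9% for H3K27ac and 14.6% and 21.9% for MYC.

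The 15 members at snRNA genes, which encode RNAs of the spliceosome, were singled out after their values were seen. Their H3K4me3 scores were modest, with a median of 154.8, but 12 were open in 6 of 6 ATAC libraries, as were 35.3% of all members. H3K27ac was called at 13 of 15 in WT and 15 of 15 in KO, beside 22.6% and 53.9% of all members. MYC was called at 12 of 15 in WT and 13 of 15 in KO, beside 14.6% and 21.9%. At Rnu1a1, a U1 snRNA gene, the MYC scores were 183 in WT and 132 in KO, and at Rnu5g, a U5 snRNA gene, 172 and 183. At the Gm22634 snRNA gene near Eapp, where the H3K4me3 score was only 54.1 in WT, the MYC scores were 112 in WT and 277 in KO and the H3K27ac scores 111 and 326. Many snRNA genes are near-identical copies, and no label read here says how the authors placed reads that match several copies.

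Non-coding genes listed for their known roles in growth, X inactivation, imprinting or blood were looked up among the members. Of 59 listed lncRNAs, 54 matched by symbol and 18 had a member within 1 kb. The counts were 5 of 23 for listed snoRNA host genes and 8 of 81 matched miRNA genes. Among listed genes with both ends more than 5 kb from coding ends, a member lay within 1 kb of 16 of 32 lncRNAs, 4 of 5 snoRNA hosts and 8 of 43 miRNA genes, beside 5.42% of all such lncRNAs and 4.7% of all such miRNAs. Together the lists named 25 members, of which 9 had H3K27ac in WT, 19 had it in KO, 5 had MYC in WT and 11 had MYC in KO. Over all members the shares were 22.6% and 53.9% for H3K27ac and 14.6% and 21.9% for MYC.

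**Figure D2:**
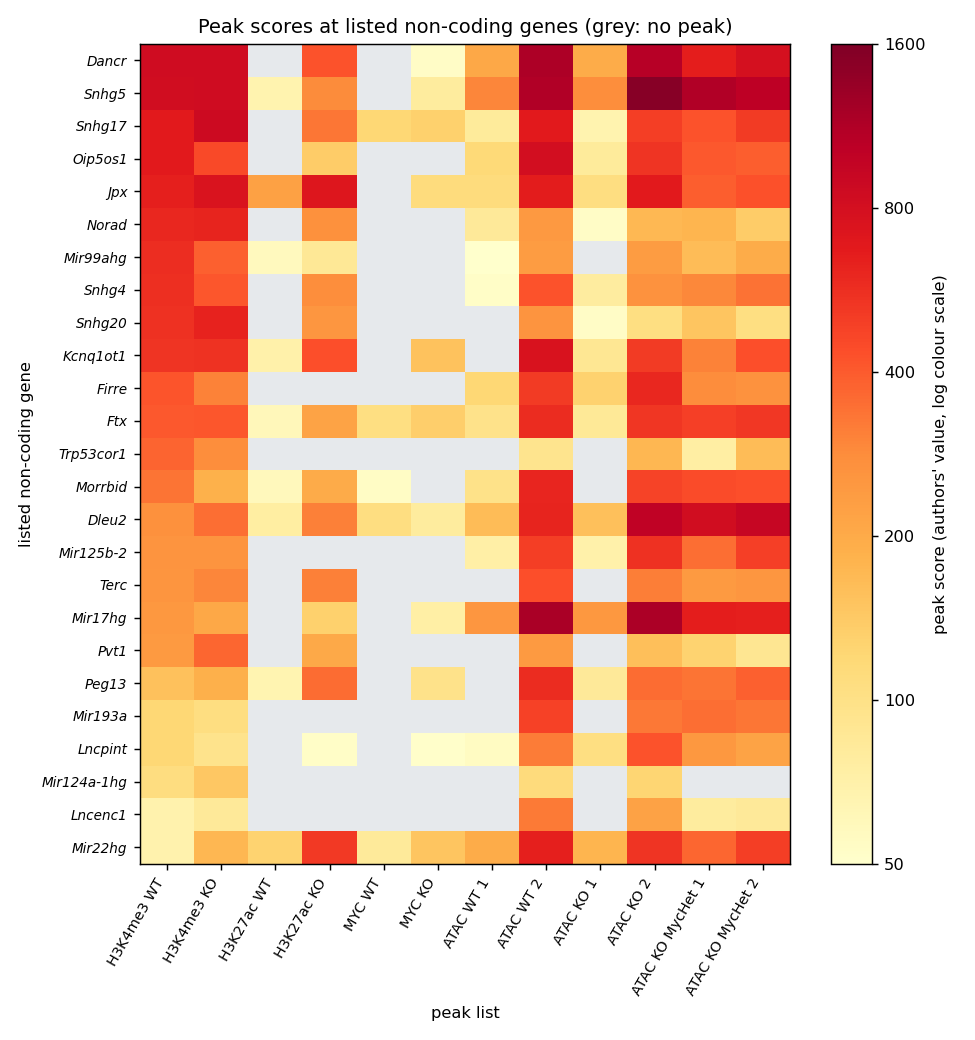
Peak scores (the authors' value, log colour scale) in the 12 lists at the 25 members next to a listed non-coding gene, ordered by WT H3K4me3 score; grey is no peak. H3K27ac was called at 9 of these members in WT and 19 in KO, and all 25 had a peak in ATAC WT library 2 and in ATAC KO library 2.

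The highest WT H3K4me3 scores among the 25 were at Dancr and Snhg5. Dancr, a lncRNA that also hosts Snora26 (chr5:74092567-74095145), scored 842 in WT and 837 in KO for H3K4me3. It had H3K27ac only in KO (422), MYC only in KO (52.8), and ATAC scores of 206 and 1145 in WT and 195 and 1078 in KO. Snhg5, a snoRNA host (chr9:88520021-88524275), scored 831 and 837, with H3K27ac of 67.2 in WT and 285 in KO, and MYC only in KO (78.3). The KO MYC list was the longer one, and its 8774 highest peaks, as many as the WT list held, all scored 82.9 or more. The MYC peaks at Dancr and Snhg5 were under that score. Snhg17 (679 and 868) had H3K27ac of 333 in KO only, and MYC in both lists (120 and 131). Norad, a lncRNA of genome stability (597 and 615), and Snhg20 (555 and 622) had H3K27ac in KO only (271 and 253) and no MYC peak. Oip5os1 (673 and 452) and Snhg4 (560 and 412), which also scored above 500 in WT, had H3K27ac in KO only (136 and 277) and no MYC peak. Mir99ahg (567 and 382) had H3K27ac of 57.4 in WT and 85.7 in KO and no MYC peak.

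At the X-inactivation locus, Jpx and Ftx, which regulate Xist, were both members. Jpx (chrX:103492615-103495961) scored 638 in WT and 740 in KO, with H3K27ac of 222 and 710 and MYC of 110 in KO only. Ftx (chrX:103620829-103624301) scored 405 and 408, with H3K27ac of 59.8 and 218 and MYC of 104 and 133. Firre, an X-linked nuclear lncRNA (chrX:50633660-50636044, 417 and 305), was open in 6 of 6 libraries with no H3K27ac or MYC peak, although its window carries a CACGTG. Kcnq1ot1 and Peg13, imprinted lncRNAs inside Kcnq1 and Trappc9, scored 537 and 155 in WT, and H3K27ac there was 70.0 and 64.7 in WT and 434 and 354 in KO. Both had MYC in KO only, at 153 and 95.8.

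Further members lay at lncRNAs with roles in blood or next to Myc. Morrbid, a lncRNA that controls survival of short-lived myeloid cells (chr2:128427474-128430202), scored 334 in WT and 184 in KO, with H3K27ac of 58.6 and 199 and MYC in WT only (53.9). Pvt1, the neighbour of Myc (chr15:62037042-62039489), scored 241 and 368. It had H3K27ac in KO only (203), no MYC peak, and no peak in ATAC WT library 1 or KO library 1. Terc, the telomerase RNA (256 and 297), had H3K27ac in KO only (309), no MYC peak, and the same pattern of openness, with peaks in 4 of 6 libraries. Mir22hg, host of miR-22, had the lowest WT H3K4me3 score of the 25, 67.6, and scored 173 in KO. It had peaks in all 10 other lists, with H3K27ac of 127 in WT and 519 in KO.

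Coding genes next to members included many regulators of blood formation. Of 70 listed blood regulators, 29 (41.4%) were the nearest coding gene of at least 1 member, with 46 members in all. Over all 21631 coding genes this was 2649 (12.2%). Listed genes also had more room: the median sequence nearest to a gene and beyond 5 kb of coding ends was 106 kb for the list and 29.8 kb for all genes, and its part in the count was not tested. Ikzf2, a transcription factor of lymphoid cells and HSC, had 4 members, and Mecom, Mef2c, Satb1, Bcl11a, Hmga2 and Fos had 3 each. Pde4d had the most of any gene, 10, over 1463 kb.

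Spi1, which encodes PU.1, a master regulator of myeloid cells, had a member inside the gene at 13626 bp from its nearer end (chr2:91096000-91099728), scoring 444 in WT and 372 in KO. It was open in 6 of 6 libraries and had H3K27ac of 59.7 in WT and 312 in KO. Runx1, needed for HSC formation, had a member over an internal start (chr16:92695887-92698675), with 168 and 82.4 for H3K4me3, H3K27ac only in KO (66.7) and MYC only in KO (120). Its KO peak was 6850 bp wide and its WT peak 2789 bp. Runx3 and Satb1 had members over internal starts with WT scores of 421 and 322. The Mecom internal start (chr3:30008602-30014319, 237 and 219) was 5718 bp wide in WT, had no H3K27ac or MYC peak, and was open in the 4 longer ATAC lists only.

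The members named here near Kit, Fos and Cd34 were open in 6 of 6 libraries, and those near Runx1, Kit, Cd34 and Vwf were chosen after their values were seen. The member 72604 bp from Kit, the stem cell factor receptor (chr5:75729326-75730943), scored 118 and 68.3, with H3K27ac of 115 and 341 and MYC of 115 and 230. Of the 3 members near Fos, an immediate-early transcription factor, the one 8205 bp away scored 421 and 407 and had H3K27ac in KO only (284). The Cd34 member (187 and 206), over the start of the lncRNA Gm16897, had no H3K27ac or MYC peak. A member inside Vwf, a gene of platelet-biased HSC and endothelium, scored 105 and 128, with H3K27ac of 98.4 and 365.

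Members were open less often than shared peaks at coding ends in every ATAC library. The share of members with an ATAC peak was 44.3% in WT library 1 and 86.9% in WT library 2, against 78.9% and 98.6% at coding ends. In KO it was 46.4% and 82.2%, against 78.2% and 97.9%. In KO MycHet it was 78.9% and 80%, against 96.7% and 97.1%. The mean difference was -21.5 percentage points (SD 9.38, n = 6 libraries, range -34.6 to -11.7), lower in 6 of 6 (two-sided exact sign-flip permutation test, p = 0.0312, the smallest that 64 sign assignments allow, and 0.0312 after Benjamini-Hochberg adjustment over 2 comparisons). Nothing in the labels says that the libraries came from separate mice, so the test measures only the spread between these libraries. When any 1 of the 6 was left out, the difference stayed between -23.4 and -18.8 points, and 5 libraries cannot give an exact p below 0.0625.

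**Figure D3:**
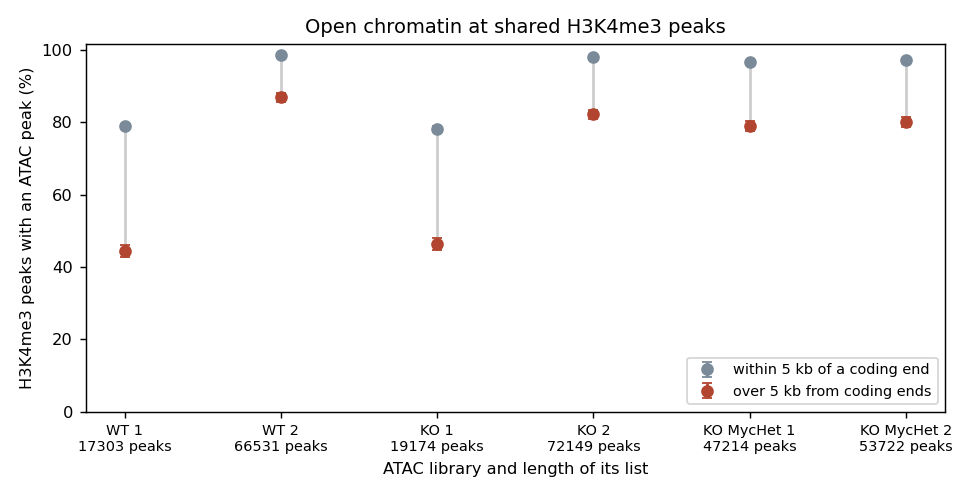
Share of shared H3K4me3 peaks with an ATAC peak (y axis, %) in each of the 6 libraries (x axis, with the length of its list), for peaks over 5 kb from coding ends and peaks within 5 kb. Bars are exact 95% intervals, and members lie lower in 6 of 6 libraries, at 44.3% and 46.4% in the libraries with short lists.

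The gap was also seen between peaks of like H3K4me3 score. Among peaks scoring 50 to 100, 30.2% of members and 40.8% of the others were open in WT library 1, and 77.2% and 91.4% in WT library 2. Among peaks of 400 or more, the shares were 75.5% and 89.8% in WT library 1, and 95.7% and 99.8% in WT library 2. In each of the 4 score bands and each of the 6 libraries the share was lower for members, the differences running from -28.8 to -4.08 points. Peaks were not matched for width, which bears on an overlap of 1 bp. The median WT width was 1357 bp for members and 2500 bp for the others, and its part in the gap was not tested.

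Members over a RefSeq start were open more often than members without one, by a mean of 21.9 points (SD 5.53, n = 6 libraries, range 14.5 to 30.8), higher in 6 of 6 (two-sided exact sign-flip permutation test, p = 0.0312, adjusted p = 0.0312). This comparison was added after the data were seen. Members over a start were also wider, with a median WT width of 2144 bp against 1199 bp, and the part of width was not tested. In WT library 1 the shares were 68.2% and 37.5%, and in WT library 2 they were 98.1% and 83.7%. Windows at members open in 6 of 6 libraries held a median of 19 CG pairs, and at members open in fewer, 11.

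Over all members, 1199 (35.3%) were open in 6 of 6 libraries, 749 (22.1%) in exactly 4 and 350 (10.3%) in none. These counts differed between the classes. The classes also differed in median WT width, 2241 bp over internal starts and 868 bp at pseudogene ends, and in score, and the part of these was not tested. Of members over internal starts, 60.9% were open in all 6 libraries and 0.463% in none, whereas of members at pseudogene ends, 16.7% were open in all 6 and 45.9% in none. Members open in 6 libraries had a median WT score of 226.4 and width of 1830 bp, and members open in none 92.2 and 850 bp. Of the 350 members open in no library, 137 (39.1%) had an H3K27ac peak in KO, below the 53.9% of all members. Among the other shared peaks open in no library the share was 32.7%.

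**Figure D4:**
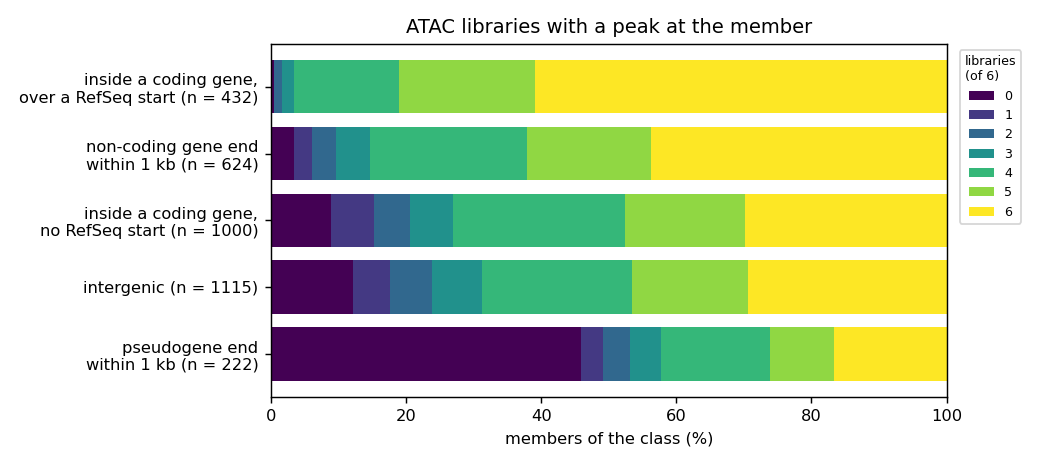
Percentage of members (x axis) with an ATAC peak in 0 to 6 of the 6 libraries, by position class (y axis, with the number of members). Members over internal starts were open in all 6 libraries in 60.9% and members at pseudogene ends in none in 45.9%.

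Between genotypes, the share of open members did not differ beyond the spread between libraries. It was 65.6% ± 30.1 (SD, n = 2) in WT, 64.3% ± 25.3 in KO and 79.4% ± 0.771 in KO MycHet. The KO minus WT difference was -1.25 points (exact permutation test, two-sided, p = 1), and 2 libraries against 2 cannot give a p below 0.33. Its sign depended on single libraries: it was 20 points without WT library 2 and 16.6 points without KO library 1, and -4.66 points with library 2 of each genotype alone. The KO MycHet minus KO difference was 15.1 points with all libraries and -2.81 points when only the 4 longer lists were used.

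Few members had an ATAC peak in both libraries of 1 genotype and in neither of another. Both WT and neither KO held at 12 members (0.354%), where over all shared H3K4me3 peaks the share was 0.0923%. They include members near Hace1, Gpatch2l and Gdi2 and inside Cdk5rap2, with WT ATAC scores from 50.1 to 216. Both KO and neither WT held at 3 members (0.0884%, against 0.0284%), inside Snrpn, at Gnasas1 in the imprinted Gnas locus, and near LOC108167368. Their scores in KO libraries 1 and 2 were 52.6 and 155, 57.4 and 53.4, and 51.3 and 56.8. Most of these were near the lowest deposited score, 50.0. Both KO MycHet and neither KO held at 39 (1.15%, against 0.412%), and the reverse at 4 (0.118%, against 0.0426%). Both KO MycHet and neither WT held at 12 (0.354%, against 0.107%), and the reverse at 8 (0.236%, against 0.0781%).

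H3K27ac was called at more members in KO than in WT. It overlapped 768 members (22.6%; CI 21.2 to 24.1) in WT and 1828 (53.9%; CI 52.2 to 55.6) in KO. At the other shared peaks the shares were 25.2% and 69%. With 1 library per genotype there is no test. The KO list was also the longer one, with 20036 peaks against 10078. With only its 10078 highest peaks, which all scored 103.8 or more, the KO share was 36.1%, and the difference fell from 31.2 to 13.4 points.

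By genotype, 1130 members (33.3%) had H3K27ac in KO and not in WT, where over all shared H3K4me3 peaks this share was 42%. The reverse held at 70 members (2.06%, against 1.25%), both genotypes had the mark at 698 (20.6%), and neither at 1495 (44.1%). The highest KO-only members lay at the lncRNAs 1300002E11Rik (KO score 499), Gm31619 (471) and B330016D10Rik (452), over an internal start of Gmps, an enzyme of guanine synthesis (494), inside Casz1, a zinc-finger factor (490), and near Ccdc9 (451). All of these 6 were open in 6 of 6 ATAC libraries. The highest WT-only members lay inside Gria1 (WT score 282), over an internal start of Jmjd1c, a histone demethylase family member (240), and at the lncRNAs Gm35229 (234) and Gm15658 (188). At Jmjd1c the H3K4me3 scores were 587 in WT and 113 in KO.

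Of the classes, intergenic members had H3K27ac most often in WT, 27%, and members at pseudogene ends least often, 15.8%. In KO the shares were 57.2% over internal starts, 56.5% inside genes without a start, 54% at non-coding ends, 53.3% in intergenic members and 38.3% at pseudogene ends. The relation to coding-end peaks depended on the score. Among peaks scoring 50 to 100 for H3K4me3, members carried H3K27ac more often than the others, 17.8% against 8.75% in WT and 39.9% against 23% in KO. Among peaks of 400 or more the WT shares were 42.5% and 36%, and the KO shares 85.5% and 91%. In the lower pair of score bands (under 200) the members' share was the higher one in both genotypes, and in the upper pair it was the higher one in WT and the lower one in KO. These differences have no test.

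**Figure D5:**
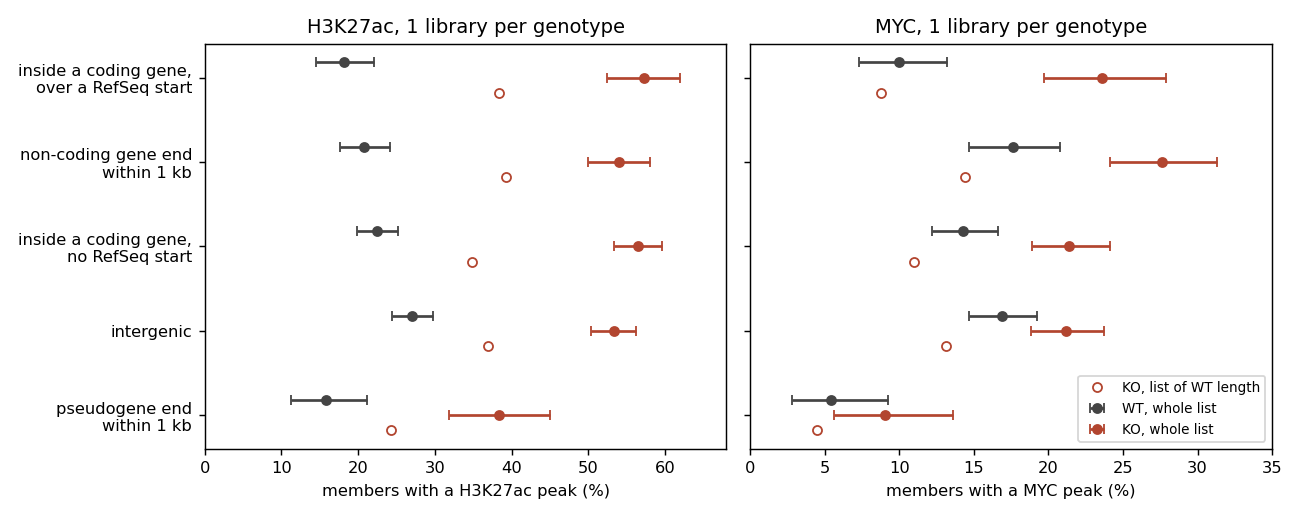
Percentage of members of each position class (y axis) with an H3K27ac peak (left) or a MYC peak (right) in WT and KO, with exact 95% intervals; open circles use as many KO peaks, the highest-scoring, as the WT list holds. With equal lists the KO share stays above WT for H3K27ac in each class and lies below WT for MYC in each class.

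MYC was called at fewer members. It overlapped 496 (14.6%; CI 13.4 to 15.9) in WT and 744 (21.9%; CI 20.5 to 23.4) in KO, against 17.3% and 36.6% at the other shared peaks. This order turned among weakly marked peaks. At WT H3K4me3 scores of 50 to 100, MYC was at 13.3% of members and 6.83% of the others in WT, and at 17.8% and 11.3% in KO. At scores of 100 to 200 the shares were 13.2% and 9.62% in WT and 18.7% and 17.3% in KO, and in both bands members were the higher. At 200 to 400 the members' share was just under the 15.1% of the others in WT, and it was 22.4% against 34.1% in KO. At 400 or more they were 20.9% and 23.5% in WT and 39.4% and 49.4% in KO. The lists differed in length, with 8774 peaks in WT and 22086 in KO, and the sign of the genotype difference changed when equal numbers were used. The part of list length was not tested. With the 8774 highest KO peaks the KO share was 11.6%, so the difference turned from 7.31 to -3.01 points, and it was negative in each of the 5 classes, from -3.77 points in intergenic members to -0.901 at pseudogene ends. At the other shared peaks it was 0.964 points with equal lists. With MYC peaks of 100 or more in both lists, the member shares were 7.01% in WT and 8.9% in KO, a difference of 1.89 points.

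Both genotypes had a MYC peak at 354 members (10.4%). KO only held at 390 (11.5%), where over all shared H3K4me3 peaks the share was 20.3%, and WT only at 142 (4.19%, against 3.88%). The highest KO-only member was intergenic, 7052 bp from Ptpn12 (chr5:20978572-20979593), with a MYC score of 1054 and H3K27ac of 112 and 160 but no peak in any ATAC library. Next came LOC115487747 near Slc39a11 (593), 1700010G06Rik inside Asap1 (329), a member inside Crim1 (311) and one near Zfp958 (275). The highest WT-only members lay inside Mgst1 (243), near Obi1 (216), near Bcl6, a repressor of lymphoid genes (203), and at Gm39173 inside Wwc2 (197).

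In KO, MYC was called more often at members that also had H3K27ac. Of 1828 members with H3K27ac in KO, 608 (33.3%) had MYC in KO, and of 1565 without it, 136 (8.69%). At the other shared peaks the shares were 47.9% and 11.5%. Among the 5 classes, MYC was most frequent at non-coding ends and least frequent at pseudogene ends, whichever list was used. The 2 shares were 17.6% and 5.41% with the WT list, 27.6% and 9.01% with the KO list, and 14.4% and 4.5% with its 8774 highest peaks. At internal starts the same 3 lists gave 9.95%, 23.6% and 8.8%. With the WT list, intergenic members had 16.9%, close to the share at non-coding ends. Among non-coding ends, the WT share was 16.1% at lncRNAs and 36.6% at small RNA genes such as tRNA and snRNA genes.

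At one extreme, 166 members (4.89%) had a peak in all 10 of the H3K27ac, MYC and ATAC lists, against 774 of the other shared peaks (7.24%). At the other, 186 members (5.48%) had a peak in none of them, against 66 of the others (0.618%). The 15 members with a WT H3K4me3 score of 1000 or more showed both. Of these, 11 had a peak in all 10 lists, and 8 had a score of 500 or more in every one of them. The highest, an intergenic member 1034451 bp from Lrrc4c (chr2:98666123-98667487), scored between 3003 and 3100.0 in all 10 lists. Intergenic members near Rpusd4 (chr9:35304993-35306004) and Rab10 (chr12:3109453-3110484) had scores from 2103 to 3141 and from 1670 to 2551 in those lists. So the H3K4me3, H3K27ac, MYC and ATAC lists all had a very high peak there in each genotype, and the scores do not set any assay apart. Whether these peaks reflect the marks themselves was not tested. No label read here says whether the authors filtered such regions.

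The opposite pattern was found inside Chd8, a chromatin remodeller, which had 6 members within 49.89 kb. The member chr14:52236543-52237706 scored 3100.0 in WT and 2438 in KO for H3K4me3, with no peak in any of the 10 other lists. A further 4 members beside it, with WT scores of 112, 532, 411 and 573 and KO scores of 233, 446, 554 and 469, also had none. The sixth (chr14:52242917-52245257, 327 and 366) was open in 6 of 6 libraries without H3K27ac or MYC. Inside Cpeb1, a translation regulator, a member (chr7:81420045-81421807) scored 1202 in WT and 2107 in KO, with H3K27ac of 434 and 1003 and MYC of 145 and 67.2 but no ATAC peak in any of 6 libraries.

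Peaks found in only 1 genotype had lower median scores than members. The rule took members from peaks called in both lists, so this is a description only. Over 5 kb from coding ends, 599 WT peaks had no KO peak, with a median width of 731 bp and score of 62.1. In KO, 1361 such peaks had no WT peak, with medians of 1060 bp and 69.5. Each median of score was under that of the members in the same list, 150.7 in WT and 164.2 in KO.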

How the data were processed

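Peak lists of 12 libraries of sorted mouse HSC were used: ChIP-seq of H3K4me3, H3K27ac and MYC, with 1 library for each of WT and KO, and ATAC-seq with 2 for each of WT, KO and KO MycHet. The other 8 samples of the series, RNA-seq of 4 WT and 4 KO, were not analysed here. Each list holds the peaks of 1 library, with the score as the authors deposited it from a peak caller with MACS-style peak names. The lowest deposited score is 50.0, and its scale is not stated. Positions are on mm10, and CASAVA, TopHat and Cufflinks are named, per the submitters' processing notes. The read mapper, the version, settings and control of the peak caller, and any shift of ATAC-seq reads were not given in the sources used here. Lists carry no counts, so depth is unknown.

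Only chromosomes 1 to 19 and X were used, and peaks sharing at least 1 bp were taken as overlapping. Gene ends came from RefSeq genes of GRCm38.p6, with 21631 coding genes, and strands and starts from RefSeq windows. The members and the gene lists were chosen with earlier results of these data known. Named members were the 8 highest and 8 widest in WT, those within 1 kb of a listed non-coding gene, the 15 highest of those nearest a listed blood regulator, and the highest inside genes, between genes and in 1 genotype only for H3K27ac, MYC and ATAC. The text names a part of them, and the report marks those singled out with values in view. Shares carry exact Clopper-Pearson 95% intervals. ATAC shares were compared within libraries by an exact sign-flip test and between genotypes by an exact permutation test, both two-sided, and ChIP-seq, with 1 library per genotype, was not tested. Alternatives changed the distance, the overlap, the score minimum, the length of the lists and the libraries. Scripts used Python 3.11.15, pandas 2.3.3, numpy 2.4.6 and scipy 1.17.1. Overlaps were tested on simulated intervals and gave the same counts as bedtools 2.31.1 for the 12 lists.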

Additional observations from a re-analysis of the deposited data

How the results depend on the processing

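The number of members, 3393, was 3848 at a distance of 2.5 kb, 2710 at 10 kb, 3373 where KO peaks had to cover at least 50% of the WT peak, and 2126 with a score of 100 or more in both genotypes. The share at non-coding gene ends moved from 18.4% to 21.1% with that score minimum and to 22% with a window of 2.5 kb. It is 0% by construction when members within 5 kb of any non-coding gene or pseudogene end are left out. The lower openness of members than of other shared peaks kept its direction in all 20 alternatives. It no longer passed 0.05 when 1 library was left out (-23.4 to -18.8 points, exact p = 0.0625, the smallest that 5 libraries allow) and with the 4 longer lists, an alternative added after seeing the data (-15.6 points, exact p = 0.125, the smallest possible). Between genotypes, the KO minus WT difference ran from -22.5 to 20 points with 1 library left out, KO MycHet minus KO from -2.81 to 33 points and KO MycHet minus WT from -7.47 to 35.1. With the 4 longer lists the last 2 were -2.81 and -7.47 points, and KO MycHet minus WT was -0.973 points with equal numbers of highest-scoring peaks. An exact permutation test of such a difference cannot reach a p below 0.33. Library numbers pair the samples by number only: deviations of same-numbered WT and KO libraries correlated at 0.49, and those with KO MycHet at 0.02 and 0.03. A permutation within the library number (replicate block) gave the same differences, -1.25, 15.1 and 13.8 points, with an exact p of 1 for each. The H3K27ac difference, 31.2 points, was 36.6 with the H3K4me3 score minimum of 100, 27.9 with that minimum on the H3K27ac lists and 13.4 with equal lists. The MYC difference, 7.31 points, was 1.89 with the minimum on the MYC lists and -3.01 with equal lists. Leaving out shared peaks with a WT score of 1000 or more, also added after seeing the data, changed no direction. Of 114 named members, 114 stayed members at 2.5 kb, 95 at 10 kb, 113 with the 50% cover and 88 with the score minimum. Why these values differ was not tested. The unknown depth of the lists limits each comparison between genotypes.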
